A study of Mus musculus with 8 samples.

Results

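Otop1 encodes otopetrin 1, a membrane channel that lets protons pass, and it was followed here across mouse sciatic nerves of 4 genotypes. It was chosen for its level: earlier results of these data showed that it was higher with a neuregulin 1 transgene, and higher again when the Q215X allele was also present. Its family members Otop2 and Otop3 were taken as background, so the family held 3 of the 23356 genes in the deposited table. Only Otop1 reached the level for testing, a mean of at least 1 FPKM over all libraries, which 12530 genes reached. FPKM scale the fragments of a gene by its length and by the size of the library, so levels of different genes can be set side by side.

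Otopetrins form a small family of proton-selective channels. In mice Otop1 is known as the channel by which sour-sensing taste cells admit protons, and it is needed in the inner ear for the otoconia, the mineral grains of the balance organs. It is also known to be expressed in mouse brown fat. Neuregulin 1 type III is the form that axons hold in their membrane to signal to the ERBB receptors of Schwann cells, and its dose sets how thick myelin becomes.

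All mice were F1 animals of C57BL/6;FVB/N, aged 30 days, and whole sciatic nerve was read as poly A selected RNA. The HA-NRG1 type III/+:Q215X/+ mice carried both the transgene and the Q215X allele, and are called the double here. The HA-NRG1 type III/+ mice carried the transgene alone, the Q215X/+ mice carried the mutant allele alone, and wild-type (WT) mice carried neither. Each genotype had 2 libraries, whose columns ended in 0 or 1 and are called set 0 and set 1. The labels do not say that the libraries came from separate animals. At least the HA-NRG1 type III/+ libraries, read below as male and as female, did not share an animal. For the other genotypes this is unknown, so errors and p-values measure only the spread between libraries, which may be technical. The sources used here do not name the promoter that drives the transgene.

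Total FPKM ran from 443733 to 530901 per library, and with no counts in the table the depth behind a value is unknown. The summed FPKM of 9 myelinating Schwann cell markers was 35182 to 36376 in the double, 38950 to 39384 in HA-NRG1 type III/+, 37664 to 39322 in Q215X/+ and 40576 to 41011 in WT, with none of the 9 at 0. Nrg1 averaged 0.428 FPKM in the double, 0.352 FPKM in HA-NRG1 type III/+, 0.258 FPKM in Q215X/+ and 0.184 FPKM in WT, below the level for testing. The sex-linked genes Xist and Ddx3y read the double libraries as female and the HA-NRG1 type III/+ libraries as male in set 0 and female in set 1. They read the Q215X/+ libraries as male and the WT libraries as female. Skeletal muscle markers summed to 771 FPKM in the set 1 library of Q215X/+ and to 5.21 to 63.7 FPKM in the other 7 libraries.

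The Otop1 gene (ID 21906) lies on the plus strand of chromosome 5 at 38277404 to 38304217 in RefSeq on GRCm38.p6, a span of 26814 bases. The GENCODE M21 annotation gives it 4 transcripts, 2 of them protein coding, one of which starts further upstream at 38275972. No other annotated gene overlapped the Otop1 span there, so its reads are not shared with an antisense partner in that annotation. The promoter window of its RefSeq start, 250 bases before and 50 after, is printed because it holds the annotated start of the RNA whose level the results turn on. Capitals mark matches to GCGNGGGNG, the core of the binding motif of EGR factors, whose member EGR2 drives myelin genes in Schwann cells.
Otop1, chr5:38277154-38277453, plus strand, GRCm38.p6, RefSeq: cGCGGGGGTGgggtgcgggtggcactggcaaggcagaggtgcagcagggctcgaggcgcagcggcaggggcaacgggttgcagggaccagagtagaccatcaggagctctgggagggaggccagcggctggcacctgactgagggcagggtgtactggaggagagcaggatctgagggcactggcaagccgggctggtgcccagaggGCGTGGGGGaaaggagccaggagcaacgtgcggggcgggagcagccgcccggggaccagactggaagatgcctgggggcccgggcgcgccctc

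The window was 71.7% G and C and held 18 CpG pairs, against medians of 52.7% and 7 over 32851 RefSeq windows of 300 bases from 27025 genes. Its 2 EGR matches, searched on both strands, were on the plus strand and began 249 and 43 bases before the start. Of all windows 12.3% held at least 1 such match, and of the 3148 windows with at least 70% G and C, 50.7% did. The E-box CANNTG occurred once, as CACCTG beginning 119 bases before the start, and occurred in 72.3% of all windows. The SOX core ACAANG, the TEAD core GGAATG, the AP-1 site TGANTCA, the cyclic AMP response element TGACGTCA and the ETS core CCGGAAG had no match on either strand in this window. They occurred in 41.2%, 14.7%, 7.81%, 1.79% and 8.86% of all windows, in that order. The Otop2 window on chromosome 11 was 56.3% G and C with 6 CpG pairs and no EGR match, and the Otop3 window was 63.0% with 22 CpG pairs and 1 EGR match.

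Otop1 was highest in the double, next in HA-NRG1 type III/+, then in Q215X/+, and lowest in WT. Its level was 20.5 FPKM in set 0 and 17.7 FPKM in set 1 of the double. In HA-NRG1 type III/+ it was 7.65 FPKM in set 0 and 7.17 FPKM in set 1. In Q215X/+ it was 2.64 and 1.76 FPKM, and in WT 1.26 and 1.12 FPKM, again in set 0 and set 1. No library of one genotype overlapped with a library of another. Between Q215X/+ and WT, however, the nearest libraries lay closer to each other than the pair of Q215X/+ libraries did. In each of the 4 genotypes the set 0 library was the higher, by a factor of 1.07 to 1.50. The means were 19.1 ± 1.98 FPKM in the double, 7.41 ± 0.339 FPKM in HA-NRG1 type III/+, 2.2 ± 0.622 FPKM in Q215X/+ and 1.19 ± 0.0991 FPKM in WT (SD, n = 2 each). Since the gene was chosen on these values, they are a description and carry no test. In a whole nerve, more cells that express the gene and more RNA in each such cell cannot be told apart.

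**Figure D1:**
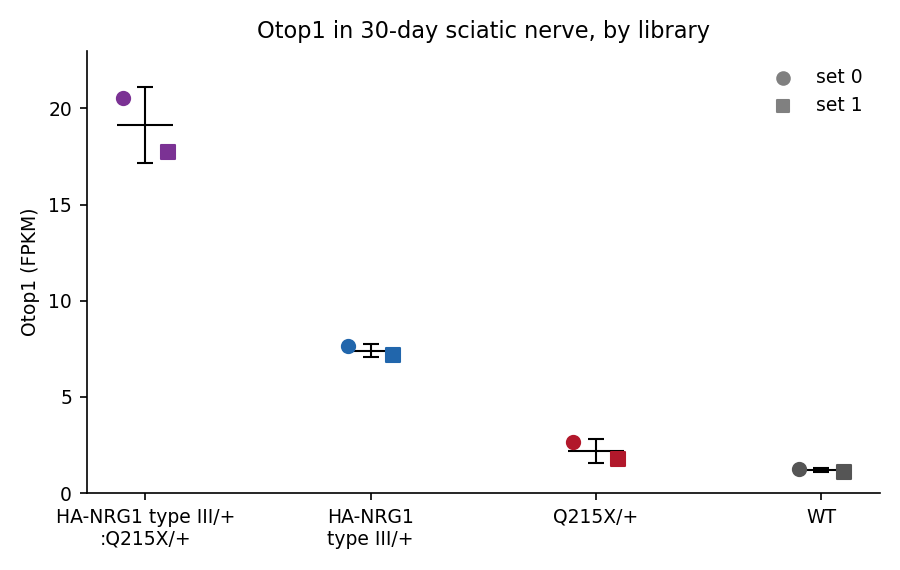
Level of Otop1 in each library in FPKM, by genotype, with set 0 and set 1 as separate points, the group mean as a line and the SD as error bars. The double libraries sit at 20.5 and 17.7 FPKM, above every other library, and the WT libraries at 1.26 and 1.12 FPKM are the lowest.

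Among all genes of a library, Otop1 stood in the upper part in the double and near the middle in WT. It stood above 84.6% of the 23356 genes in set 0 and 82.1% in set 1 of the double. In HA-NRG1 type III/+ it stood above 68.7% and 67.1% of genes, in Q215X/+ above 54.7% and 50.5%, and in WT above 48.3% and 47.5%. The ranking gives the same order of genotypes as the FPKM values and does not rest on how a library was scaled.

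The other family members were near or at 0 in all genotypes. Otop2 was listed at 0.0089 and 0.0106 FPKM in the double, 0.0125 and 0.0111 FPKM in HA-NRG1 type III/+, 0.0216 and 0.00845 FPKM in Q215X/+, and 0 and 0.00912 FPKM in WT. Its highest value, 0.0216 FPKM, was in a Q215X/+ library, and the 4 genotypes overlapped. Otop3 was listed at 0 in all 8 libraries. The Otop2 gene lies at 115307163 to 115332306 and the Otop3 gene at 115334731 to 115346927, side by side on the plus strand of chromosome 11. Neither reached the level for testing.

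The transgene alone came with an Otop1 level 6.21 times that of WT. Within the sets the ratio of HA-NRG1 type III/+ to WT was 6.05 in set 0 and 6.38 in set 1, both close to the ratio of the means. On the log2(FPKM + 1) scale, which understates the change of a gene with low values, the difference was 1.94 (SE 0.147, 95% interval 1.58 to 2.29), with 1.93 in set 0 and 1.94 in set 1. In the mutant, where the double libraries read as female and the Q215X/+ libraries as male, the transgene came with a larger ratio, 8.69 from the means of the double and Q215X/+, 7.78 in set 0 and 10.1 in set 1. The log2 difference there was 2.66 (95% interval 2.31 to 3.02), with 2.56 in set 0 and 2.76 in set 1. The absolute difference was 16.9 FPKM between the double and Q215X/+, and 6.22 FPKM between HA-NRG1 type III/+ and WT. Because Otop1 was chosen on these comparisons, the intervals are a description and do not serve as a test.

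The mutation alone came with a smaller and less even difference. The ratio of Q215X/+ to WT was 1.84 from the means, 2.09 in set 0 and 1.57 in set 1, and the log2 difference was 0.53 (SE 0.147, 95% interval 0.18 to 0.89). In transgenic nerves the ratio of the double to HA-NRG1 type III/+ was 2.58 from the means, 2.68 in set 0 and 2.47 in set 1. The log2 difference there was 1.26 (95% interval 0.90 to 1.61). In FPKM, the double exceeded HA-NRG1 type III/+ by 11.7, and Q215X/+ exceeded WT by 1.01. These intervals, too, are a description of a gene chosen on its values and do not serve as a test.

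The difference between Q215X/+ and WT moved with which Q215X/+ library was kept, and both stood apart in markers of other tissues. The set 0 library of Q215X/+, the one with the higher Otop1, held 3.83 FPKM of Ucp1, which uncouples the mitochondria of brown fat cells, against at most 0.0632 FPKM in any other library. It also held 6.86 FPKM of Cidea, a lipid droplet protein of brown fat, against at most 0.276 FPKM elsewhere. The 5 brown adipocyte markers summed to 14.3 FPKM in it and to 3.53 to 4.88 FPKM in the other 7 libraries. In the set 0 library of the double, where Otop1 was highest, 3 of these 5 markers were at 0, and the sum was 4.41 FPKM. The part of brown fat or muscle RNA in the Otop1 values was not tested. Without the set 0 library of Q215X/+ the log2 difference between Q215X/+ and WT was 0.33, and without the set 1 library, the one with skeletal muscle RNA, it was 0.73. Both Q215X/+ libraries also read as male and both WT libraries as female, so sex and mutation cannot be told apart in this pair. The double libraries read as female, so sex and transgene cannot be told apart between the double and Q215X/+ either, and the interaction holds both of these comparisons. A sex term, which rests on the male and the female HA-NRG1 type III/+ library alone, gave log2 differences of 2.75 between the double and Q215X/+ and 0.45 between Q215X/+ and WT. Between the transgenic libraries the male one, of set 0, had 7.65 FPKM of Otop1 and the female one, of set 1, 7.17 FPKM. Otop1 was higher in set 0 in all 4 genotypes, so sex and set cannot be told apart in this pair or in the sex term. Double and WT libraries were all read as female, and the double had 16.0 times the Otop1 of WT, 16.2 times in set 0 and 15.8 times in set 1.

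Markers of several other cell types differed between genotypes as well. The sum of 8 fibroblast markers was 6657 to 6846 FPKM in the double and 6995 to 7279 FPKM in HA-NRG1 type III/+. It was 6010 to 6595 FPKM in Q215X/+ and 5659 to 6243 FPKM in WT. This sum was higher with the transgene in both backgrounds without overlap, but the single markers were mixed. The log2 difference was above 0 for 6 of the 8 in the WT background (median 0.23). In the mutant it was above 0 for only 3 of the 8 (median -0.08). The sum of 7 nonmyelinating Schwann cell markers was lower with the transgene in both backgrounds, though not most of the single markers in the WT background. This sum was 136 to 141 FPKM in the double and 132 to 138 FPKM in HA-NRG1 type III/+. In Q215X/+ it was 156 to 159 FPKM and in WT 159 to 173 FPKM. The log2 difference was above 0 for 4 of the 7 in the WT background (median 0.05). In the mutant it was above 0 for 2 of the 7 (median -0.20). The sum of 6 mast cell and lymphocyte markers was 24.9 to 31.6 FPKM in the double, 30.1 to 49.3 FPKM in HA-NRG1 type III/+, 12.9 to 25 FPKM in Q215X/+ and 20.9 to 22.8 FPKM in WT. Its member Ly9, a lymphocyte surface receptor, was called between HA-NRG1 type III/+ and WT at a log2 difference of 0.91 and an adjusted limma p of 0.0218. It was 1 of 8 genes called there, which is 0.0638% of those tested. The sum of 7 macrophage markers was 133 to 142 FPKM in the double and 122 to 139 FPKM in HA-NRG1 type III/+. It was 103 to 125 FPKM in Q215X/+ and 92.9 to 116 FPKM in WT. Within each background this sum was higher with the transgene without overlap, and all 7 markers had a log2 difference above 0. As for the fibroblast sum, the share of all genes that separate in this way is not given here. The double overlapped with HA-NRG1 type III/+, HA-NRG1 type III/+ with Q215X/+, and Q215X/+ with WT. The sum of 6 neuronal genes that mark axonal RNA was 17.6 to 24.8 FPKM in the double, 16.1 to 21.2 FPKM in HA-NRG1 type III/+, 32.5 to 34.6 FPKM in Q215X/+ and 28.5 to 43.5 FPKM in WT. The sum of 5 red blood cell genes was 73.3 to 178 FPKM in the double, 49.1 to 89.7 FPKM in HA-NRG1 type III/+, 599 to 1279 FPKM in Q215X/+ and 239 to 244 FPKM in WT. The sum of 9 adipocyte markers, 820 to 1043 FPKM in the double and 710 to 981 FPKM in WT, overlapped among all genotypes. No marker of the fibroblast, nonmyelinating Schwann cell, mast cell and lymphocyte, macrophage, axonal, red blood cell or adipocyte lists was at 0 in any library. With the set as a replicate block, 4 axonal genes and 1 nonmyelinating Schwann cell marker were called lower between HA-NRG1 type III/+ and WT. Called higher there were 1 fibroblast, 1 macrophage and 1 mast cell or lymphocyte marker, beside 2.11% of all genes called. Between the double and Q215X/+ the block called 2 red blood cell genes and 1 nonmyelinating Schwann cell marker lower. It called 1 fibroblast, 2 macrophage, 1 mast cell or lymphocyte and 1 nonmyelinating Schwann cell marker higher, beside 1.72% of all genes. The part of these cells in the Otop1 values was not tested.

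The Otop1 level of the double exceeded the sum of the separate differences. If transgene and mutation each added their own FPKM to the WT level, the double would have stood at 8.41 FPKM from the means, 9.02 FPKM in set 0 and 7.81 FPKM in set 1. The measured level was 10.7 FPKM above that sum from the means, 11.5 FPKM in set 0 and 9.92 FPKM in set 1, or 2.27 times the sum in all 3 cases. Over all 16 ways of taking 1 library per genotype the excess lay between 8.56 and 12.9 FPKM. Against the product of the separate ratios the excess was smaller. The product gave 13.7 FPKM from the means, 16.0 FPKM in set 0 and 11.2 FPKM in set 1, and the double was 1.40, 1.28 and 1.58 times as high. Over the 16 ways this factor ran from 0.986 to 2.06, so the libraries of the double did not stand above the product in every choice.

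**Figure D2:**
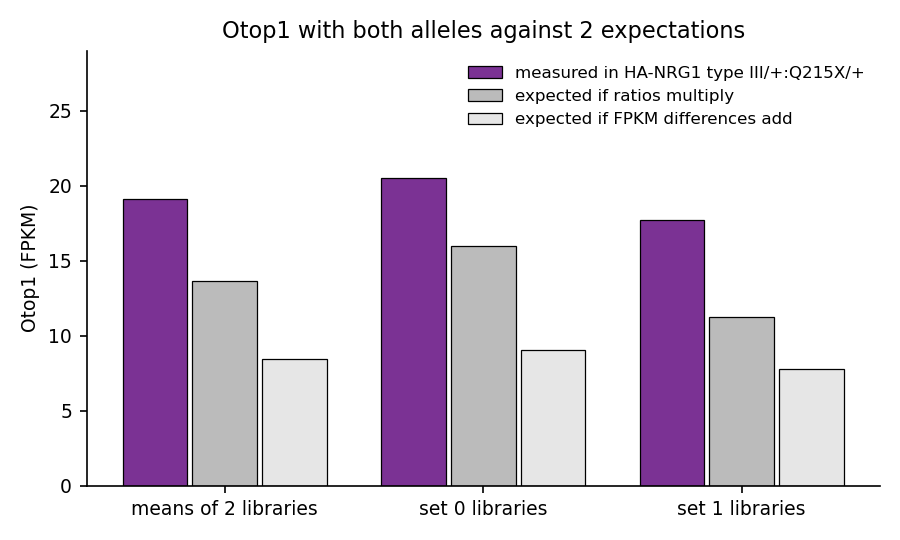
Measured Otop1 level of the double in FPKM beside the level expected if the differences of transgene and mutation add, and if their ratios multiply, from the means and within set 0 and set 1. From the means the measured level is 19.1 FPKM, against 8.41 FPKM for the sum and 13.7 FPKM for the product.

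The test was the interaction on the log2(FPKM + 1) scale, the transgene difference in the mutant minus the transgene difference in WT. It is not the departure from the product of FPKM ratios, because the added 1 FPKM shrinks the differences at the low Q215X/+ and WT levels. For Otop1 it was 0.72 (SE 0.21, 95% interval 0.22 to 1.23), with 0.63 in set 0 and 0.82 in set 1, positive in both. The unadjusted limma p was 0.0118 and the Benjamini-Hochberg adjusted limma p over all genes was 1.00, so the interaction was not called. The interaction was 0.55 at a pseudocount of 0.1 FPKM, 0.51 at a pseudocount of 0.01 FPKM and 0.85 with a sex term. The unadjusted limma p-values there were 0.0853, 0.113 and 0.0878 in that order, all above 0.05. Of the 12530 genes tested, 24 had a smaller p and 165 a larger size. Only 1 gene, the microRNA gene Mir135a-1, was called for the interaction, which is 0.00798% of those tested, and 139 genes reached an unadjusted limma p under 0.05. When the set was added as a replicate block, the unadjusted limma p was 0.0014 and the adjusted limma p was 0.965, and again 0.00798% of genes were called. Otop1 was chosen with these values known, so the unadjusted p-values are not independent evidence. The excess over the sum was not tested, since an additive rise in FPKM has no contrast on this scale. No permutation test was run.

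Against other genes the Otop1 differences were large, which is how the gene came to be chosen. After short RNA, predicted and sex-linked genes were set aside, 11725 genes remained, and Otop1 ranked at 1 in both transgene comparisons and in the double against WT. The next gene was Lect1, which encodes chondromodulin 1, at a log2 difference of 1.69 (SE 0.188) between HA-NRG1 type III/+ and WT and of 2.49 between the double and WT. Between the double and Q215X/+ the next was the ribosomal protein gene Rps27, at 1.74 with a much wider SE of 1.15. Otop1 ranked at 3 for the double against HA-NRG1 type III/+, at 54 for Q215X/+ against WT, and at 40 for the interaction. These ranks used the contrasts by which Otop1 was chosen and are a description.

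**Figure D3:**
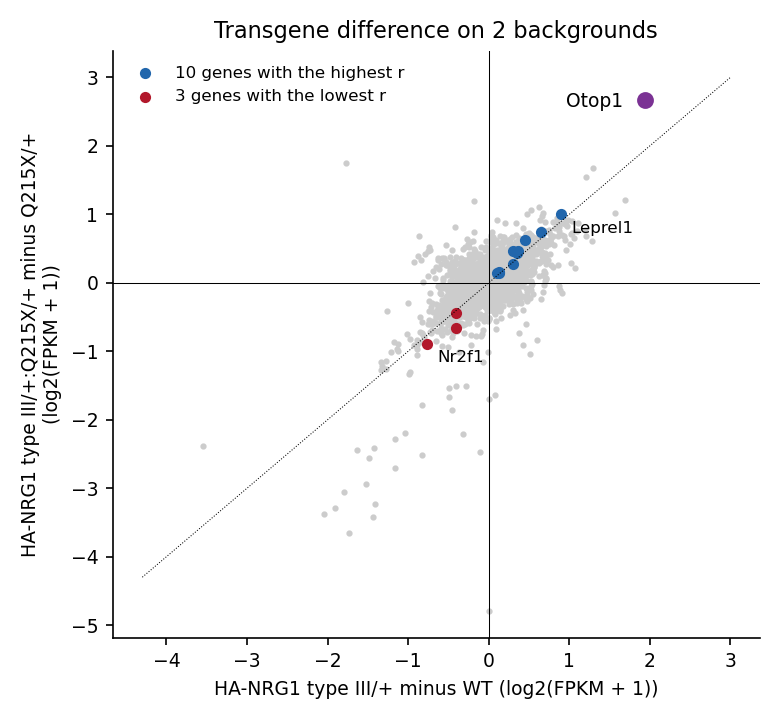
Log2 difference of each tested gene for HA-NRG1 type III/+ minus WT (horizontal axis) and for the double minus Q215X/+ (vertical axis), without short RNA and sex-linked genes. Otop1 lies apart at 1.94 and 2.66, the dotted line marks equal differences, and coloured points are the genes with profiles most like and most opposed to that of Otop1.

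When no gene was set aside, 18 genes had a larger difference than Otop1 between HA-NRG1 type III/+ and WT and 19 between the double and Q215X/+, with 5 in both. Apart from the sex-linked Ddx3y and Eif2s3y in the WT background and Xist in the mutant, all were microRNA or small nucleolar RNA genes. The largest was Snord99, at 13.5 (SE 3.62) between HA-NRG1 type III/+ and WT, with an adjusted limma p of 0.391. None of them was called, and with the replicate block only Snora70 was, between HA-NRG1 type III/+ and WT, at an adjusted limma p of 0.0486. The spread of Otop1 itself was ordinary: its SD on the log2 scale within genotypes was 0.164, against a median of 0.123 over 1384 genes of like level, 67.0% of which had a smaller one.

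None of the tested genes beside Otop1 on chromosome 5 was called with the transgene. As the background for this count, 0.0638% of all genes were called between HA-NRG1 type III/+ and WT, 8 genes with 4 higher and 4 lower, and 865 genes reached an unadjusted limma p under 0.05. Between the double and Q215X/+ 0.0399% were called, and 825 genes reached that unadjusted p. These were 5 genes, Otop1, which was higher, and Cntn1, Slc7a2, Spint1 and Mir135a-1, which were lower, named after their values were seen. Otop1 was among the called genes in both comparisons, from which nothing is read because it was chosen on them. Leaving out single libraries gave counts from 1, without either double library, to 10 between HA-NRG1 type III/+ and WT, and from 2, without either WT library, to 18, without the set 0 library of Q215X/+, between the double and Q215X/+. A replicate block for the set brought the shares to 2.11%, or 265 genes, and 1.72%, or 216 genes. The nearest 5 named genes on each side were followed, and of these 10 genes 7 reached the level for testing. None of the 7 was called in either transgene comparison or the interaction, with or without the block, which at such shares of called genes says little about 7 genes. An unadjusted limma p under 0.05 was reached by 1 of them, which was lower, between HA-NRG1 type III/+ and WT, and by 0 between the double and Q215X/+.

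The nearest gene, Tmem128, which encodes a transmembrane protein and ends 7.77 kb before the Otop1 start, was at 32.3 and 43.2 FPKM in the double, 33.5 and 41.6 FPKM in HA-NRG1 type III/+, 29.2 and 40.2 FPKM in Q215X/+, and 27.8 and 37.7 FPKM in WT. Its genotypes overlapped, and in each genotype set 1 was the higher, the opposite of Otop1. Lyar, a nucleolar protein gene 43.1 kb before the start, and Stx18, a syntaxin gene of vesicle fusion 139.6 kb before it, also had the higher value in set 1 of every genotype. On the other side, the dopamine receptor gene Drd5, 15.3 kb after the end, was listed at 0 in all 8 libraries. The next gene, Slc2a9, a urate transporter 45.1 kb away, had at most 0.599 FPKM. Wdr1, an actin-disassembly factor 222.6 kb away, was at 60.4 and 53.0 FPKM in the double, 58.8 and 52.5 FPKM in HA-NRG1 type III/+, 58.3 and 53.4 FPKM in Q215X/+, and 56.9 and 49.8 FPKM in WT. Over the 7 tested neighbours the log2 difference ran from -0.35 to 0.20 between HA-NRG1 type III/+ and WT and from -0.30 to 0.20 between the double and Q215X/+, with a median of 0.06 in both. Nsg1, an endosomal protein gene of neurons, gave the lower end of both ranges.

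**Figure D4:**
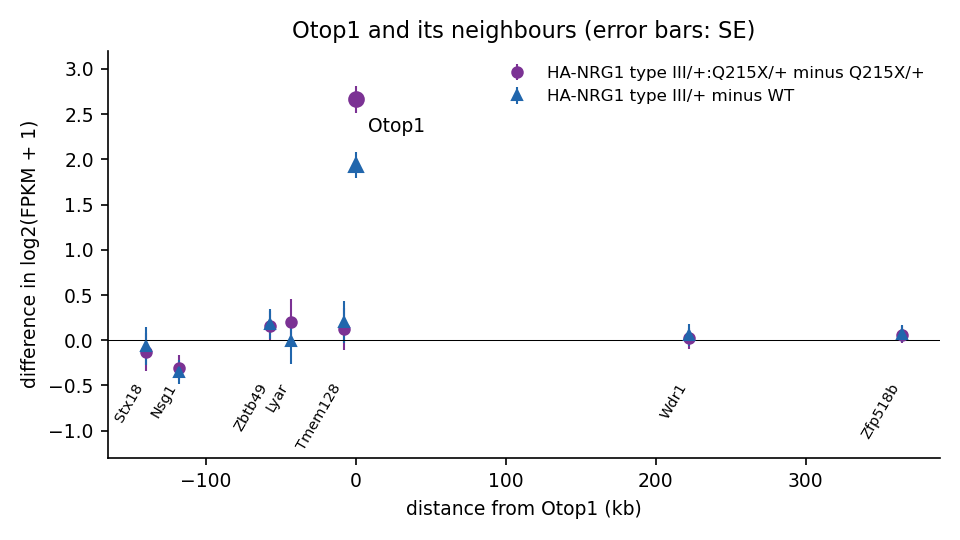
Log2 difference with the transgene, in the mutant and in the WT background, for Otop1 and the tested genes among the 5 on each side of it, by distance along chromosome 5 in kb, with SE bars. Otop1 stands at 2.66 and 1.94, and all tested neighbours lie between -0.35 and 0.20.

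The other genes that handle acid in a cell were taken as 8 lists of 107 genes, of which 59 reached the level for testing and 48 did not. None of the 59 was called in either of the transgene comparisons, beside the 0.0638% and 0.0399% of all genes called. An unadjusted limma p under 0.05 was reached by 7 of them, 4 of these higher, between HA-NRG1 type III/+ and WT, and by 10, 6 of these higher, between the double and Q215X/+. These are 11.9% and 16.9% of the list genes, beside 6.9% and 6.58% of all genes tested. Their median log2 difference was 0.01 between HA-NRG1 type III/+ and WT and 0.00 between the double and Q215X/+, and the median of all genes tested was -0.01 in both. With the replicate block 2 of the 59 were called between HA-NRG1 type III/+ and WT, 1 higher and 1 lower, which is 3.39% beside 2.11% of all genes. Between the double and Q215X/+ 1 was called, lower, which is 1.69% beside 1.72% of all genes.

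Sodium-proton exchangers, which push protons out of the cell or of organelles in exchange for sodium, held the lower gene called with the block in both comparisons. This gene, Slc9a3, the exchanger NHE3 of kidney and gut epithelia, was at 6.27 and 6.61 FPKM in the double and 6.25 and 4.28 FPKM in HA-NRG1 type III/+, against 12.7 and 14.4 FPKM in Q215X/+ and 13.1 and 12.2 FPKM in WT. The transgenic libraries did not overlap with the others in either background, and the share of all genes that separate in this way is not given here. The log2 difference was -1.14 (SE 0.155) between HA-NRG1 type III/+ and WT, with an adjusted limma p of 0.115 and of 0.0295 with the replicate block. Between the double and Q215X/+ it was -0.96, with an adjusted limma p of 0.165 and of 0.0415 with the block. Slc9a7, an exchanger of the trans-Golgi network, had log2 differences of 0.42 and 0.47 in the WT and mutant backgrounds and was not called with or without the block. Over the 7 tested exchangers the medians were -0.03 and -0.10.

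Among proton channels and acid sensors, 7 of 18 were tested and none was called. Hvcn1, the voltage-gated proton channel of immune cells, was at 2.91 and 2.33 FPKM in the double, 2.64 and 3.12 FPKM in HA-NRG1 type III/+, 2.53 and 1.62 FPKM in Q215X/+, and 2.94 and 2.23 FPKM in WT, so its genotypes overlapped. Gpr65, a proton-sensing receptor of leukocytes, had a log2 difference of 0.44 between HA-NRG1 type III/+ and WT and of 0.39 between the double and Q215X/+, at adjusted limma p-values of 0.590 and 0.721. Kcnk5, an acid-sensitive potassium channel, had differences of -0.62 and -0.32, and the second was 0.078 without the set 0 library of Q215X/+. The chloride channel Tmem206, which protons open, and the lysosomal channel Tmem175 stayed within 0.16 of 0 in both comparisons. Pkd2l1, a channel that marks sour taste cells, was below the level for testing.

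Bicarbonate transporters, which buffer the cell, had 5 of 12 members tested and medians of 0.12 between HA-NRG1 type III/+ and WT and 0.23 between the double and Q215X/+. Slc4a7, the sodium-bicarbonate cotransporter NBCn1, was at 3.03 and 3.12 FPKM in the double and 2.88 and 2.88 FPKM in HA-NRG1 type III/+, against 2.27 and 2.29 FPKM in Q215X/+ and 2.34 and 2.21 FPKM in WT. Its transgenic libraries lay above all others, but the share of all genes that separate in this way is not given here. The log2 differences of 0.24 and 0.31 for Slc4a7 were not called, at adjusted limma p-values of 0.533 and 0.379. The cotransporter gene Slc4a4 had differences of 0.24 and 0.32 and the chloride-bicarbonate exchanger gene Slc4a2 of -0.12 and -0.01. None of the list was called.

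Carbonic anhydrases, which turn carbon dioxide and water into bicarbonate and protons, had 8 of 16 members tested and medians of -0.04 and -0.07 in the WT and mutant backgrounds. Car3, the isoform of fat and muscle, was the highest at 266 and 311 FPKM in the double, 185 and 236 FPKM in HA-NRG1 type III/+, 132 and 372 FPKM in Q215X/+, and 316 and 173 FPKM in WT, with overlap among all genotypes. Car2 had log2 differences of 0.07 and -0.43. The V-ATPase, the pump that acidifies lysosomes and endosomes, had 19 of 25 subunit genes tested with medians of 0.04 and 0.03. Its gene Atp6v0e was at 115 and 152 FPKM in the double, 121 and 152 FPKM in HA-NRG1 type III/+, 100 and 142 FPKM in Q215X/+ and 93.0 and 146 FPKM in WT, where the sets differed more than the genotypes. None of either list was called.

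Lactate export, which carries a proton with each lactate, had 7 of 8 members tested and medians of -0.03 between HA-NRG1 type III/+ and WT and -0.18 between the double and Q215X/+. Bsg, the chaperone of the lactate transporters, was at 411 and 437 FPKM in the double, 396 and 432 FPKM in HA-NRG1 type III/+, 393 and 446 FPKM in Q215X/+, and 380 and 446 FPKM in WT. The transporter gene Slc16a1 had a difference of 0.10 in both comparisons, and Slc16a7 had -0.22 and -0.43. None of the list was called.

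The genes known to work beside Otop1 in other tissues gave no call. Of 10 genes of otoconia formation 3 were tested, and the medians were -0.04 and 0.03 in the WT and mutant backgrounds. Sparcl1, a matrix protein, was at 235 and 222 FPKM in the double, 237 and 241 FPKM in HA-NRG1 type III/+, 256 and 259 FPKM in Q215X/+, and 254 and 237 FPKM in WT. Cyba and Noxo1, which are partners of the otoconial oxidase, had differences within 0.13 of 0. Of 9 genes of sour taste cells 4 were tested, with medians of -0.27 and -0.16. Ncam1, an adhesion molecule that nonmyelinating Schwann cells also make, had differences of -0.29 and -0.33, and the potassium channel gene Kcnj2 of 0.05 and 0.25. None of either list was called.

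**Figure D5:**
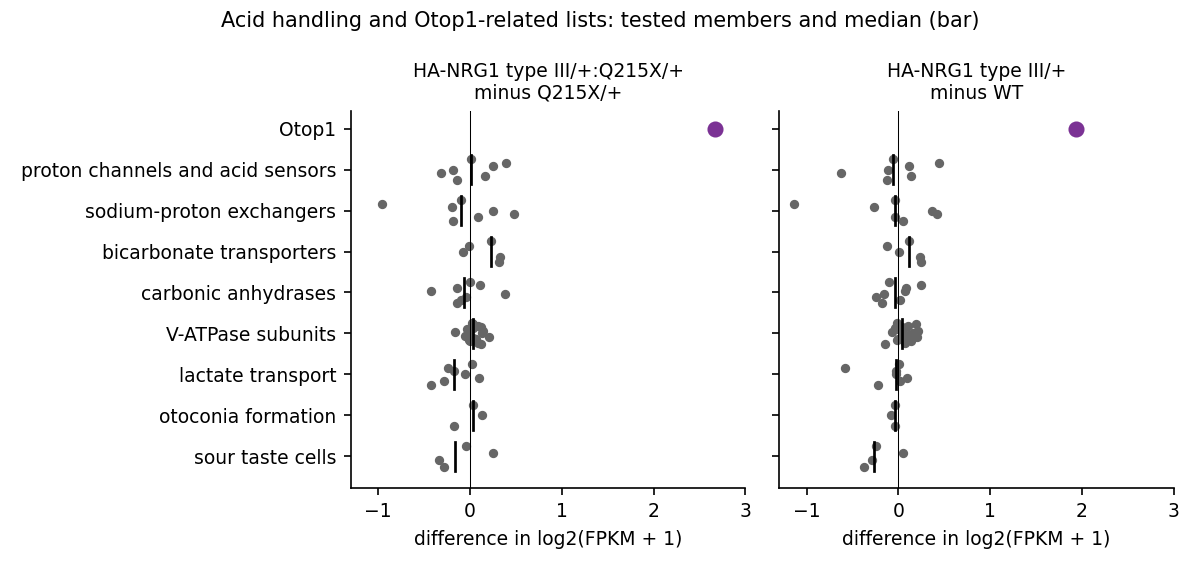
Log2 difference with the transgene, in the mutant and in the WT background, of each tested member of the 8 lists, with the median of each list as a line and Otop1 for comparison. The list members lie between -1.14 and 0.47, and Otop1 lies at 2.66 and 1.94.

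The genes whose log2(FPKM + 1) profile over the 8 libraries was most like that of Otop1 were sought among 11724 genes, without short RNA, predicted and sex-linked ones. Pearson r was above 0.9 for 91 genes and below -0.9 for 103, and r reads the shape of a profile and not its size. The 10 highest were the oxytocin receptor gene Oxtr at 0.992, Mcph1, a gene of chromosome condensation, at 0.977, the sodium-potassium-chloride cotransporter gene Slc12a2 at 0.977, the acyl-CoA thioesterase gene Acot7 at 0.976, the organic cation transporter gene Slc22a2 at 0.975, the collagen prolyl hydroxylase gene Leprel1 at 0.975, the complement receptor gene C3ar1 at 0.970, the matrix proteoglycan gene Epyc at 0.968, the adhesion receptor gene Bai1 at 0.964 and the translation factor gene Eif1a at 0.964. The libraries are the same for all genes, so these values are a description with n = 8. Only 5 of the 10 were also among the 10 highest after the mean of each set was removed, and only 3 by Spearman's rho.

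The genotypes differed by less for these genes than for Otop1. Leprel1 was at 36.3 and 32.8 FPKM in the double, 23.6 and 26.0 FPKM in HA-NRG1 type III/+, 15.5 and 18.0 FPKM in Q215X/+, and 12.6 and 13.1 FPKM in WT, with the 4 genotypes in the order of Otop1 and no overlap. Bai1 was at 3.26 and 2.46 FPKM in the double, 1.90 and 1.66 FPKM in HA-NRG1 type III/+, 1.27 and 1.33 FPKM in Q215X/+, and 0.833 and 0.713 FPKM in WT, again without overlap. Both were picked for likeness to Otop1 over these same libraries, so the order and lack of overlap are no separate result. Oxtr, with the highest r, averaged only 2.39 FPKM in the double and 1.95 FPKM in WT. Slc12a2 averaged 79.0 FPKM in the double and 54.7 FPKM in WT.

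The profiles most opposed to Otop1 were those of Mt1, Nr2f1 and Rassf4, at r of -0.987, -0.986 and -0.984. Mt1, a metal-binding metallothionein, was at 323 and 330 FPKM in the double, 429 and 445 FPKM in HA-NRG1 type III/+, 507 and 528 FPKM in Q215X/+, and 594 and 570 FPKM in WT. Nr2f1, a nuclear receptor, was at 8.16 and 8.42 FPKM in the double, 10.6 and 10.4 FPKM in HA-NRG1 type III/+, 15.7 and 16.7 FPKM in Q215X/+, and 17.0 and 20.2 FPKM in WT. Both were lowest in the double and highest in WT, with no overlap between genotypes. Since they were picked for a profile opposed to that of Otop1, this order and separation are no separate result.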

How the data were processed

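The authors deposited 1 FPKM value per gene and library for 8 sciatic nerve libraries. Per the submitters' processing notes, the tools were TopHat2 2.0.9 and Cufflinks 2.2.0 with build mm10. What each did, and any strand handling or filter, is not given. Each line held an empty field that the header lacks, so names and values were read in order. Column stems gave the genotype, and the transgene stem, an abbreviation, was taken as the genotype element that no other stem named. No label ties the endings 0 and 1 to replicate numbers.

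The deposited FPKM were turned into log2(FPKM + 1) and fitted with limma 3.58.1 (R 4.3.3): 4 group means over all libraries, eBayes trend, 4 residual degrees of freedom (3 with the set as a block), a minimum mean of 1 FPKM, and Benjamini-Hochberg adjusted p under 0.05 for a call. The fit was tested on simulated data. Deviations of same-ending libraries correlated across genes at 0.118 to 0.304 in all pairs of genotypes, so the sets were taken as paired, which no label states. Members, lists and tests were chosen with earlier results of these data known. Named genes were the family, the targeted and sex-linked genes, 5 neighbours on each side (RefSeq, GRCm38.p6, since the table holds no coordinates), the 10 most and 3 least alike in profile, genes with larger transgene differences, and in each list members called, with the smallest p or with the highest level. A few of these are not reported here. Lect1, Rps27 and a few list members were named after their values were seen. Alternatives were other pseudocounts, no filter, upper quartile scaling, a sex term, the block and leaving out each library.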

Additional observations from a re-analysis of the deposited data

How the results depend on the processing

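The Otop1 order of genotypes held under all alternatives run. With a pseudocount of 0.1 FPKM the Otop1 log2 differences were 2.54 (HA-NRG1 type III/+ against WT), 3.09 (double against Q215X/+), 0.81 (Q215X/+ against WT) and 3.89 (double against WT). Leaving out each library in turn gave 1.89 to 1.98, 2.46 to 2.86, 0.33 to 0.73 and 3.09 to 3.30 for these, 1.16 to 1.36 for the double against HA-NRG1 type III/+, and 9.31 to 12.1 FPKM for the excess over the sum. A lone library left in a group is assumed to vary like the other groups. The interaction was 0.52 to 0.92 without single libraries, 0.85 with a sex term and 0.51 at a pseudocount of 0.01, and was not called in any of them (adjusted limma p 0.755 to 1 without single libraries). Of 42 named-gene results, 17 were called only with the block. Counts of called genes over the whole table depended on the setting. For HA-NRG1 type III/+ against WT the count was 8, with 0 without a filter, 265 with the replicate block and 1 to 10 without single libraries. For the double against Q215X/+ it was 5, with 3 without a filter, 216 with the block, 9 with a sex term, 3 after upper quartile scaling and 2 to 18 without single libraries. For Q215X/+ against WT it was 1, with 2 (no filter), 8 (sex term) and 1 to 16. For the double against HA-NRG1 type III/+ it was 0, with 6 (sex term) and 0 to 7. For the double against WT it was 14, with 299 (block) and 5 to 17. For the interaction it was 1, with 9 (sex term) and 3 to 11. Of the 59 listed genes tested, the block called 2, 1 and 1 in HA-NRG1 type III/+ against WT, double against Q215X/+ and double against WT. The set pairing did not change the call of the Otop1 interaction. Of the 10 genes most like Otop1, 5 were shared after removing set means and 3 by Spearman's rho. Kcnk5 turned to 0.078 between the double and Q215X/+ without the set 0 library of Q215X/+, and was -0.71 without set 1. The cause of these shifts was not tested. FPKM values limit what can be said of precision, since depth is unknown.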
